A study of Mus musculus with 4 samples.

Results

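The Ube2 genes encode the ubiquitin conjugating enzymes, and 30 of them were followed in erythroid progenitors of Rcor1-/- and control mouse fetal liver. They were taken by name from the count table, as every symbol that starts with Ube2 and a letter, leaving out Ube2c and pseudogenes, with at least 40 counts summed over the 4 libraries; 35 rows carried such a name among 35927 gene rows in all. The rule did not use the difference between the groups. Ube2v1, with 43 counts over the 4 libraries, lay just inside the minimum, and Ube2ql1, with 13, lay just outside. The other rows outside were Ube2l3 with 2 counts, Ube2u with 1, and Ube2dnl and Ube2nl with 0. Ube2l3 and Ube2s are known as widely expressed genes, and whether their low counts reflect RNA level or read handling was not tested. Ube2cbp is kept by its name although it encodes a protein that binds a conjugating enzyme rather than an enzyme of the family.

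Ubiquitin is a small protein that is joined to other proteins as a signal, most often for their destruction by the proteasome. An activating enzyme (E1) loads it, a conjugating enzyme (E2) carries it on a cysteine, and a ligase (E3) brings the loaded E2 to the substrate; the E2 largely sets which kind of ubiquitin chain is built. A few E2 enzymes carry SUMO, NEDD8 or ISG15, relatives of ubiquitin, in its place. Maturing red cells discard much of their protein content through this system, and Ube2o and Ube2h are the E2 enzymes best known for roles there.

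The mutant group was 2 libraries of Rcor1-/- embryos, and the control group 2 libraries of embryos that were Rcor1+/+ or Rcor1+/-, with no statement in the labels of how many of each. All embryos were C57BL/6 at E13.5, and cells had been sorted from fetal liver as CD71-positive and TER119-negative, a gate for erythroid progenitors. Each library pooled RNA of several livers, and the labels call the pools of a group biological replicates. Rcor1 encodes CoREST, the scaffold that joins the histone demethylase Kdm1a to histone deacetylases. The comparison asks which genes differ between Rcor1-/- embryos and these controls.

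The libraries held 25186819 and 15053229 counts in mutants, against 26892375 and 22817080 in controls. Rcor1 itself was at 78.4 ± 0.723 CPM in mutants and 167 ± 10.5 CPM in controls (SD, n = 2 each), so reads of the gene were still counted in mutants; the table has 1 count for the whole gene, and reads inside any deleted stretch were not looked at. Here CPM is the count scaled to a library of fixed size after TMM scaling, which sets the typical gene to no change. Of the 6 erythroid progenitor markers 5 were lower in mutants, and their summed level was 2585 and 2535 CPM in the mutant libraries, against 3709 and 3849 CPM in the control libraries. Markers of other cells were higher in sum: 1181 and 1193 CPM in mutants against 865 and 856 CPM in controls for hepatoblasts (4 of 5 markers rose), 233 and 221 against 58.2 and 55.7 CPM for megakaryocytes (3 of 4), 51.0 and 53.1 against 32.4 and 36.2 CPM for neutrophils (1 of 4, with 1 fall), 18.8 and 19.0 against 11.9 and 13.1 CPM for macrophages (2 of 5), 18.3 and 18.1 against 7.90 and 8.35 CPM for endothelium (2 of 4), and 15.9 and 14.6 against 4.34 and 4.49 CPM for mesenchyme (4 of 4). Beside these marker counts, 28.3% of all genes tested were called higher and 29.2% lower in mutants. The neutrophil markers, 25% higher and 25% lower, were near those shares. No defining marker of these lists was at 0. The part of such cells in the results below was not tested, and in bulk RNA fewer cells of a type and less RNA per cell cannot be told apart.

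In Rcor1 mutant progenitors members of the Ube2 family were called in both directions, by small amounts, and their summed level depended on scaling. The 30 genes together stood at 2176 and 2144 CPM in mutants, against 2246 and 2152 CPM in controls, so after TMM the groups lay apart by less than the controls lay from each other. As a share of all counts, without TMM, they took 0.229% and 0.224% in mutants, against 0.214% and 0.206% in controls, with both mutants above both controls. All 30 were tested, and 9 rose, 6 fell and 15 did not pass an adjusted p of 0.05 (edgeR's quasi-likelihood test, Benjamini-Hochberg over 13140 genes). Of all genes tested 57.5% passed, 28.3% higher and 29.2% lower in the mutant, against 30% and 20% of the Ube2 genes, so the share called was near the background and is no result about the family. Their median log2 fold change, mutant over control, was 0.03, against 0.01 for all genes tested. The changes were small: 1 Ube2 gene, Ube2j2, passed with a change of at least 1.5-fold, against 23.4% of all genes, and none reached 2-fold. In 20 of the 30 genes the groups did not overlap, against 77.9% of all genes. The log2 fold changes ran from -0.75 (Ube2j2) to 0.52 (Ube2b), and their median size was 0.21, against 0.32 over all genes.

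**Figure D1:**
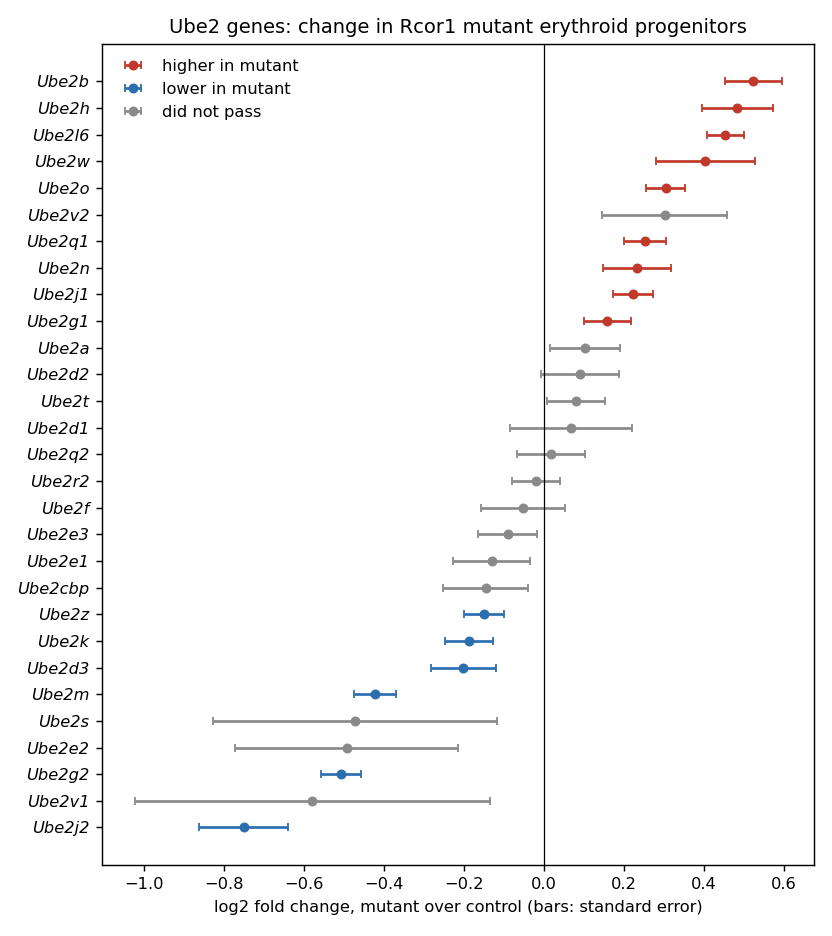
Log2 fold change of mutant over control (horizontal axis) for 29 of the 30 Ube2 genes, with the standard error as bars, coloured by whether the gene passed an adjusted p of 0.05. The 9 risers reach 0.52, the 6 fallers reach -0.75, and Ube2s, Ube2e2 and Ube2v1 have wide bars because they had few counts.

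Scaling matters at this size of change. Upper quartile scaling moved the median of all genes to 0.09 and library totals alone moved it to 0.15; the Ube2 counts became 10 higher and 3 lower, and 13 higher and 3 lower. The authors' deposited table, whose median over all genes listed was 0.146, also had 13 Ube2 genes higher and 3 lower at an adjusted p below 0.05. The genes whose direction and call stood in all 14 alternatives were 6 that rose (Ube2b, Ube2h, Ube2l6, Ube2o, Ube2q1 and Ube2j1) and 3 that fell (Ube2m, Ube2g2 and Ube2j2). Changes below are on the TMM scale.

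**Figure D2:**
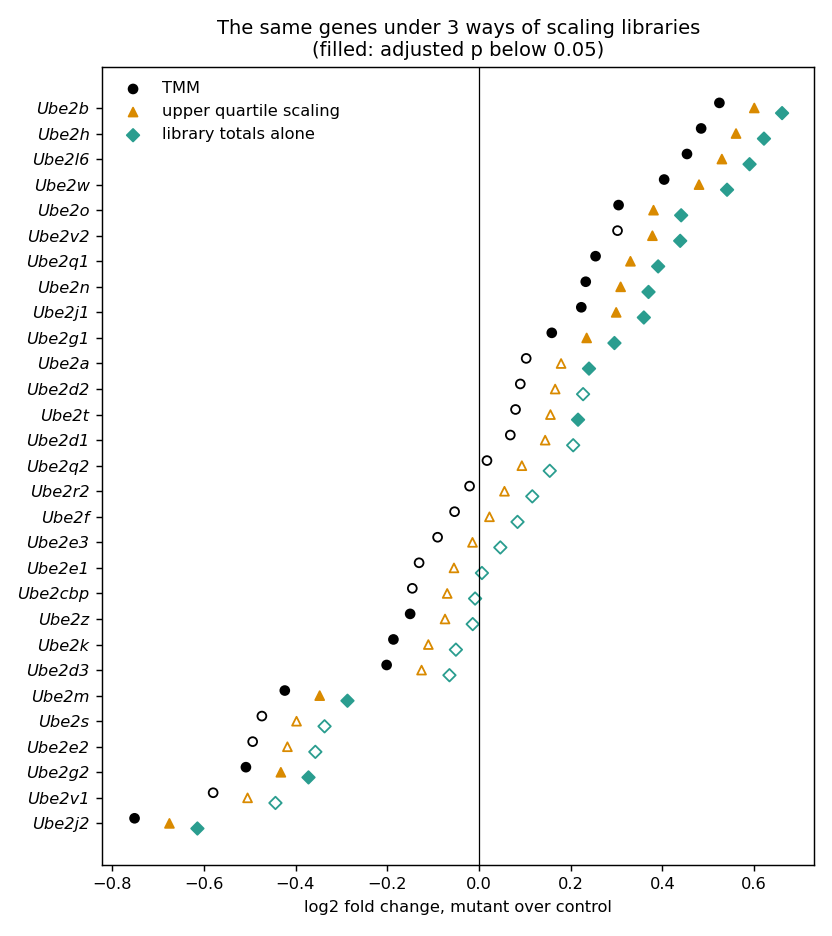
Log2 fold change of mutant over control for 29 Ube2 genes under TMM, upper quartile and library total scaling, filled where the adjusted p was below 0.05. Each step shifts all genes to the right by about the same amount, so Ube2z, Ube2k and Ube2d3 lose their calls while Ube2m, Ube2g2 and Ube2j2 keep theirs.

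The promoters of the Ube2 genes whose calls stood in all alternatives are shown because they are the regions upstream of the genes that moved most firmly; the 3 largest rises and the 2 largest falls with an entry are given. Each window runs from 250 bases before the annotated start to 50 bases after it (RefSeq, GRCm38.p6, most upstream start), and 23 of the 30 genes had one. Capitals mark 5 motifs, searched on both strands. AGATAA is a site of the erythroid factor Gata1 and its relatives. The letters CCNCNCCC belong to Klf and Sp factors. The core bound by Gfi1 and Gfi1b, repressors that recruit the CoREST complex, is AATCAC. Factors of the ETS family bind CCGGAAG, and the factor NF-Y binds CCAAT. Overlapping matches were merged in the capitals.
Ube2b, chr11:52000737-52001036, minus strand, higher in mutants: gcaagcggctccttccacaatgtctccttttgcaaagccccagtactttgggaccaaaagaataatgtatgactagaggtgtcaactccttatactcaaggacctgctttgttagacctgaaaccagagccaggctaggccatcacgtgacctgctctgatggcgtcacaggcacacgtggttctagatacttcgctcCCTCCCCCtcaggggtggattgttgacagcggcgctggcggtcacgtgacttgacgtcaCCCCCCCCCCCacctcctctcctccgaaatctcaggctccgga
Ube2h, chr6:30304490-30304789, minus strand, higher in mutants: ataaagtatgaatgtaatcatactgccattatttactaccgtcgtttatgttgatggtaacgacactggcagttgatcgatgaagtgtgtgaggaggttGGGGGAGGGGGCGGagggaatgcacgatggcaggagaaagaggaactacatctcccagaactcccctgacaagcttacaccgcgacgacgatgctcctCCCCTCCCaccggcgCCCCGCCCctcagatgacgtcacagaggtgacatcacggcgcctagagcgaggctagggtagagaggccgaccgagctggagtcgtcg
Ube2l6, chr2:84798578-84798877, plus strand, higher in mutants: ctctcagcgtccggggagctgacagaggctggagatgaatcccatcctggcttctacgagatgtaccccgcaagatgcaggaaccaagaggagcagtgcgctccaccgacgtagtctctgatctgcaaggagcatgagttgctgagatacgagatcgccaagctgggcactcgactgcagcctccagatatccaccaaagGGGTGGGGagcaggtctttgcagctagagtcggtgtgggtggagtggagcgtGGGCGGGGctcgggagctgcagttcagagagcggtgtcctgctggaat
Ube2j2, chr4:155943563-155943862, plus strand, lower in mutants: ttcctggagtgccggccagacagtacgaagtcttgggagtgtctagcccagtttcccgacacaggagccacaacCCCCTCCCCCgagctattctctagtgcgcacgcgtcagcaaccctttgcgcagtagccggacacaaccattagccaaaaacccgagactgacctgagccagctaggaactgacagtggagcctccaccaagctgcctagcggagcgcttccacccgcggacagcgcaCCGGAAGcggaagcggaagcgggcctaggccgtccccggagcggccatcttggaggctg
Ube2m, chr7:13038226-13038525, minus strand, lower in mutants: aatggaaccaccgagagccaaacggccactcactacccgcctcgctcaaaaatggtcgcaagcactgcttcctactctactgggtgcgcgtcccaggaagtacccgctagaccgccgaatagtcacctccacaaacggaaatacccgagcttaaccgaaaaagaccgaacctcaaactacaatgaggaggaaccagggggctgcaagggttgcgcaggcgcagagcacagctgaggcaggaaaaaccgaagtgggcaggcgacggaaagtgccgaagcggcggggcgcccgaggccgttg

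The letters AGATAA were in 0 of the 23 Ube2 windows and in 11.4% of 27025 windows, 1 per gene, and AATCAC was in 2 of 23, both of genes that did not pass, and in 10.5% of all. CCNCNCCC was in 20 of 23 Ube2 windows and in 49.2% of all; it was in 6 of 7 windows of genes that rose, 4 of 5 of genes that fell and 10 of 11 of genes that did not pass, so it did not separate them. CCGGAAG was in 5 of 23 and in 9.14% of all, and CCAAT in 4 of 23 and in 38.0% of all. In the windows shown, CCGGAAG was found in Ube2j2, 9 bases before the start, and none of the 5 motifs was found in Ube2m. A match is a run of letters and not a shown binding site, and a missing match says nothing about the factors.

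The Rad6 homologues Ube2a and Ube2b mark the DNA sliding clamp PCNA during damage bypass, with the ligase Rad18, and histone H2B, with Rnf20 and Rnf40. Ube2b (ENSMUSG00000020390) was at 64.1 and 61.5 CPM in mutants, against 45.2 and 42.2 CPM in controls. Both mutant libraries stood above both controls, and the change, 0.52 ± 0.07 on the log2 scale (standard error; adjusted p = 8.4e-06 by edgeR), was the largest rise of the family, 1.44-fold. Ube2a, an X-linked near twin at the protein level, had 62.1 and 50.5 CPM in mutants, against 53.1 and 52.3 CPM in controls. Its groups overlapped, and its 0.10 ± 0.09 did not pass (adjusted p = 0.334 by edgeR). With library totals alone Ube2a passed (0.24, adjusted p = 0.029 by edgeR), as in the authors' deposited table (0.24). It also passed without mutant replicate 2 (0.24) and was -0.06 without mutant replicate 1. Ube2b took 50.8% and 54.9% of the pair's counts in mutants, against 46.0% and 44.6% in controls. Of the ligases, Rnf40 (-0.41) and Ubr2 (-0.20), a ligase of the N-degron pathway, fell. Rad18, Ubr1 and Rnf20 had values of 0.07, 0.04 and -0.03 and did not pass. Among all genes tested 29.2% fell and 28.3% rose. Ubr2 lost its call under upper quartile scaling (adjusted p = 0.0649), under library totals (0.347) and without mutant replicate 1 (0.0943).

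The E2 enzymes tied to red cell maturation both rose. Ube2o (ENSMUSG00000020802), a large enzyme that acts as E2 and ligase in one and marks unassembled ribosomal proteins in reticulocytes, was at 180.1 and 175 CPM in mutants, against 142 and 146 CPM in controls. The groups did not overlap, with a change of 0.30 ± 0.05 (adjusted p = 4.08e-05 by edgeR). Ube2h (ENSMUSG00000039159), which works with the CTLH ligase complex, was at 23.6 and 22.0 CPM in mutants, against 16.6 and 16.1 CPM in controls, a change of 0.48 ± 0.09 (adjusted p = 0.000185 by edgeR). Of the 50-base words of the Ube2h transcripts, 44.2% also occur in transcripts of another gene, nearly all in the overlapping Gm26526, so its count may include or lose reads of that gene. These rises stood beside the falls of the erythroid markers counted above.

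The CTLH complex, the partner of Ube2h, changed in both directions: of 11 genes tested 5 rose, 4 fell and 2 did not pass, with a median of 0.06. Of all genes tested 28.3% rose and 29.2% fell. Ypel5 was at 18.9 ± 0.979 CPM in mutants and 11.7 ± 0.00392 CPM in controls (0.69, adjusted p = 1.45e-05 by edgeR), and Ranbp9 (0.31), Rmnd5a (0.21), Armc8 (0.19) and Wdr26 (0.12) rose less. Ranbp10, a paralog of Ranbp9, was at 88.2 ± 5.91 CPM in mutants and 154 ± 2.97 CPM in controls (-0.80, adjusted p = 2.36e-09 by edgeR). Rmnd5b (-0.34), Gid8 (-0.33; listed as 2310003C23Rik) and the ring subunit Maea (-0.22), which is also known as the erythroblast macrophage protein, fell. Both paralog pairs thus went opposite ways, Ranbp9 and Rmnd5a up, Ranbp10 and Rmnd5b down, although the difference within a pair was not tested. Rmnd5a lost its call without mutant replicate 2 (adjusted p = 0.0676) and without control replicate 1 (0.0798). Armc8 lost it without mutant replicate 1 (0.0593), mutant replicate 2 (0.11) and control replicate 1 (0.23), and Wdr26 without mutant replicate 2 (0.226) and control replicate 1 (0.297). With library totals alone Maea did not pass (0.15).

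**Figure D3:**
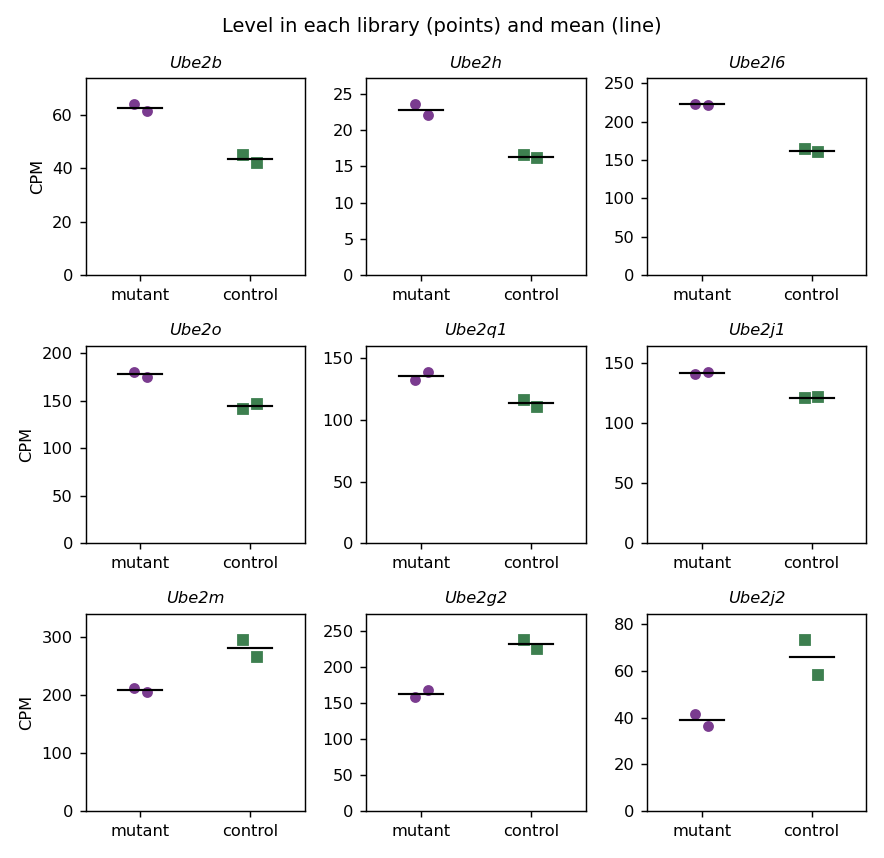
Level in CPM of the 9 Ube2 genes whose calls stood in all alternatives, with a point per library, a line at the group mean, mutants on the left and controls on the right of each panel. The 2 mutant libraries lie above both controls in the first 6 panels and below both in Ube2m, Ube2g2 and Ube2j2. Over all genes tested the groups did not overlap in 77.9%.

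The E2 enzymes of ubiquitin-like proteins split. Ube2l6 (ENSMUSG00000027078), the E2 for ISG15, which also carries ubiquitin, was at 223 and 222 CPM in mutants, against 164 and 160.5 CPM in controls, a rise of 0.45 ± 0.05 (adjusted p = 2.59e-07 by edgeR). Ube2m (ENSMUSG00000005575), which passes NEDD8 to most cullins, was at 213 and 206 CPM in mutants, against 296 and 266 CPM in controls, a fall to 0.746 of the control level (-0.42 ± 0.05, adjusted p = 3.1e-06 by edgeR). Neither gene's groups overlapped, which held for 77.9% of all genes tested. Ube2f, the other NEDD8 enzyme, had 22.8 and 18.5 CPM in mutants, against 23.1 and 20.2 CPM in controls (-0.05 ± 0.11, adjusted p = 0.691). Its groups overlapped. Per kilobase of annotated exon, Ube2l6 stood at 111 and Ube2m at 88.9 CPM per kb in mutants, against 81.4 and 119 CPM per kb in controls: Ube2l6 was the highest member in mutants and Ube2m the highest in controls.

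The genes around these enzymes moved unevenly. In the ISG15 system, Isg15 rose (1.42) on 22 and 14 counts in mutants against 8 and 7 in controls, while its activating enzyme Uba7 fell (-0.43, adjusted p = 7.03e-05 by edgeR) and the protease that removes ISG15, Usp18, fell (-1.01, adjusted p = 0.000281). The ligase gene Herc6 had 0.13 and did not pass. Isg15 lost its call with DESeq2 (adjusted p = 0.137) and without control replicate 1 (0.0774). Of 14 cullin and neddylation genes 2 rose, 2 fell and 10 did not pass, while of all genes 28.3% rose and 29.2% fell. Dcun1d3, a cofactor of NEDD8 transfer, was at 20.0 ± 0.118 CPM in mutants and 9.97 ± 1.33 CPM in controls (1.01, adjusted p = 5.69e-07 by edgeR). The cullin gene Cul4a fell (-0.51, adjusted p = 1.71e-07), Cul4b rose (0.14) and Dcun1d2 fell (-0.21). Cul4b lost its call in 8 of 14 alternatives, among them DESeq2 (adjusted p = 0.145) and no filter beyond 1 count (0.13). It also lost it without mutant replicate 1 (log2 fold change 0.06) and without control replicate 1 (0.08). Dcun1d2 lost its call with upper quartile scaling (adjusted p = 0.152), library totals alone (0.44) and DESeq2 (0.0784). The same happened without mutant replicate 2, where Dcun1d2 had a log2 fold change of -0.12.

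Of 12 SUMO ligases and proteases 3 rose, 3 fell and 6 did not pass, beside 28.3% of all genes higher and 29.2% lower. The protease genes Senp6 (0.34) and Senp5 (0.27) and the nuclear pore ligase gene Ranbp2 (0.15) rose. The ligase gene Pias4 (-0.56) and the protease gene Senp3 (-0.23) were among those that fell. With library totals alone Senp3 did not pass (-0.10, adjusted p = 0.206 by edgeR). Of the genes named, Senp6 and Pias4 kept their calls whichever library was left out. Without mutant replicate 2 Senp5 had adjusted p = 0.124 and Ranbp2 0.123, and without control replicate 1 Ranbp2 had 0.284 and Senp3 0.144.

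The E2 enzymes of degradation at the endoplasmic reticulum were called in both directions, and the 2 largest falls that passed were among them. Ube2j2 (ENSMUSG00000023286), a membrane-anchored enzyme, was at 41.6 and 36.5 CPM in mutants, against 73.4 and 58.4 CPM in controls, a fall to 0.594 of the control level (-0.75 ± 0.11, adjusted p = 0.000233 by edgeR). Its paralog Ube2j1 (ENSMUSG00000028277) was at 140.3 and 142 CPM in mutants, against 120.3 and 122 CPM in controls (0.22 ± 0.05, adjusted p = 0.000918). Ube2g2 (ENSMUSG00000009293), the enzyme that the lipid droplet protein Aup1 recruits, was at 158 and 167 CPM in mutants, against 238 and 225 CPM in controls (-0.51 ± 0.05, adjusted p = 1.69e-07 by edgeR). None of the 3 overlapped between groups, which held for 77.9% of all genes tested. Ube2j1 took 77.2% and 79.6% of the counts of the Ube2j pair in mutants, against 62.1% and 67.6% in controls. Among their partners, of 11 genes tested 7 fell, 2 rose and 2 did not pass, with a median of -0.27; of all genes tested 29.2% fell and 28.3% rose. The ligase gene Syvn1 (-0.62), the lectin gene Os9 (-0.48), Rnf5 (-0.45), Aup1 (-0.36), Derl1 (-0.27) and Herpud1 (-0.25) were among those that fell. With library totals alone Herpud1 did not pass (-0.11, adjusted p = 0.191 by edgeR). Edem1, which picks misfolded glycoproteins, was at 86.3 ± 4.44 CPM in mutants and 49.8 ± 2.07 CPM in controls (0.79, adjusted p = 2.44e-08 by edgeR), and Derl2 rose (0.21). Derl2 lost its call without mutant replicate 1 (adjusted p = 0.294) and without control replicate 2 (0.206).

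**Figure D4:**
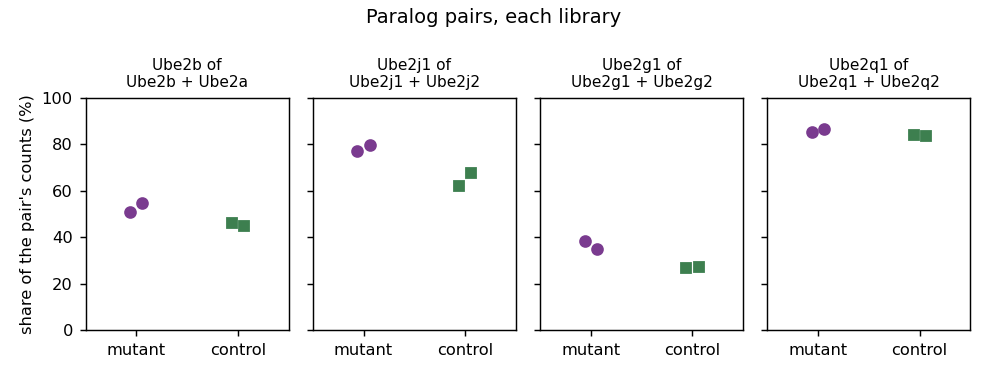
Share of the counts of 4 paralog pairs that came from the first-named gene (vertical axis, percent), with a point per library, mutants on the left and controls on the right. The gene named first is the one with the higher fold change, which sets the direction; in the Ube2j pair the mutant libraries are at 77.2% and 79.6%, against 62.1% and 67.6% in controls.

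The builders of degradation-type ubiquitin chains were called in both directions. Ube2k was at 189.7 and 219 CPM in mutants, against 236 and 227 CPM in controls (-0.19 ± 0.06, adjusted p = 0.0174). Its call was lost without mutant replicate 1 (-0.08, adjusted p = 0.288), and the fall was larger without mutant replicate 2 (-0.28). Ube2g1 was at 97.8 and 90.4 CPM in mutants, against 85.9 and 83.0 CPM in controls (0.16 ± 0.06, adjusted p = 0.0281), and did not pass without mutant replicate 1 (adjusted p = 0.332), without control replicate 2 (0.136) or with DESeq2 (0.109). It took 38.2% and 35.1% of the counts of the Ube2g pair in mutants, against 26.5% and 27.0% in controls. Ube2r2, a paralog of Cdc34, had 90.6 and 84.5 CPM in mutants, against 92.1 and 85.8 CPM in controls (-0.02 ± 0.06, adjusted p = 0.792). Cdc34, the E2 of the cullin ligases that drive cell cycle turnover, was lower, at 132 ± 9.67 CPM in mutants and 204 ± 29.5 CPM in controls (-0.63, adjusted p = 0.00798 by edgeR). A pseudogene of Cdc34 has a row of its own in the count table, and how reads were divided between the pair is uncertain.

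Cdc34 belongs to 8 genes of the E2 fold with other symbols, of which 2 rose, 2 fell and 4 did not pass. Those counts stand beside 28.3% higher and 29.2% lower of all genes. Atg10 (0.57), an E2 of autophagy, and Aktip (0.53), an E2-like protein without the cysteine, rose, and Ufc1 (-0.21), the E2 for UFM1, fell. With DESeq2 Atg10 (adjusted p = 0.0644) and Aktip (0.121) did not pass. Ufc1 did not pass with upper quartile scaling (0.0662) or library totals alone (0.315). Aktip and Ufc1 also lost their calls without mutant replicate 1 (log2 fold changes 0.51 and -0.20), and Ufc1 without control replicate 1 (-0.16).

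In the module for the chain type of DNA damage and inflammatory signalling, Ube2n is the enzyme and Ube2v1 and Ube2v2 are partners that lack the cysteine. Ube2n was at 31.8 and 29.5 CPM in mutants, against 27.2 and 25.0 CPM in controls (0.23 ± 0.08, adjusted p = 0.0262 by edgeR). It did not pass with DESeq2 (adjusted p = 0.124) or, in edgeR, with no filter beyond 1 count (0.08). The call was also lost without mutant replicate 1 (log2 fold change 0.18) and without control replicate 2 (0.16). Ube2v2 overlapped, with 7.75 and 8.97 CPM in mutants, against 5.71 and 7.80 CPM in controls (0.30 ± 0.16, adjusted p = 0.112), and passed without control replicate 2 (0.52, adjusted p = 0.00518), with the replicate number as a block (0.33, 0.025), under upper quartile scaling (0.38, 0.0499) and under library totals (0.44, 0.0223). Ube2v1 had 10 and 6 counts in mutants, against 15 and 12 in controls (-0.58 ± 0.44, adjusted p = 0.281). Of its 50-base words 63.5% also occur in transcripts of another gene, most of them in Gm20431, which overlaps it. Of 5 ligases of this module, Hltf (0.46, adjusted p = 7.55e-05 by edgeR) and Shprh (0.30) rose and Rnf8, Rnf168 and Traf6 did not pass. Beside them, 28.3% of all genes rose and 29.2% fell. Without control replicate 1 Shprh lost its call (log2 fold change 0.18).

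The general-purpose families changed little. Of the UbcH5 family, Ube2d3 was at 51.0 and 45.3 CPM in mutants, against 59.0 and 52.0 CPM in controls (-0.20 ± 0.08, adjusted p = 0.0443). That call was lost in 9 of 14 alternatives, among them without mutant replicate 2 (adjusted p = 0.307) and without control replicate 1 (0.327). Ube2d1 (0.07 ± 0.15) and Ube2d2 (0.09 ± 0.10) did not pass and overlapped between groups. Of the UbcH6 family none passed: Ube2e1 had -0.13 ± 0.10, Ube2e3 -0.09 ± 0.07, and the scarce Ube2e2, with 28 and 27 counts in mutants against 47 and 41 in controls, -0.49 ± 0.28. Without mutant replicate 2 Ube2e2 passed (-0.80, adjusted p = 0.0458).

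Ube2w, which attaches ubiquitin to protein N termini, was at 13.4 and 10.8 CPM in mutants, against 9.39 and 9.17 CPM in controls (0.40 ± 0.12, adjusted p = 0.0103), and did not pass without mutant replicate 1 (0.22, adjusted p = 0.266) or with DESeq2 (0.0953). Ube2z, which is loaded by Uba6 and not by Uba1, was at 168 and 158 CPM in mutants, against 176 and 186 CPM in controls (-0.15 ± 0.05, adjusted p = 0.0174 by edgeR). It did not pass with DESeq2 (adjusted p = 0.053) or, in edgeR, with upper quartile scaling (0.224) or library totals alone (0.837). The call was also lost without mutant replicate 2 (log2 fold change -0.11) and without control replicate 2 (-0.13). Ube2q1 (ENSMUSG00000042572) was at 132 and 139 CPM in mutants, against 116 and 111 CPM in controls (0.25 ± 0.05, adjusted p = 0.000526 by edgeR). Its paralog Ube2q2 had 22.7 and 21.2 CPM in mutants, against 21.7 and 21.8 CPM in controls (0.02 ± 0.09, adjusted p = 0.876). Ube2cbp, which also did not pass, had -0.15 ± 0.11.

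Of the E2 genes followed here, Ube2t for DNA crosslink repair and Ube2s for the anaphase-promoting complex did not pass on the TMM scale. Several of their partners fell. Ube2t, which works with the Fanconi ligase Fancl, had 49.9 and 53.9 CPM in mutants, against 48.5 and 49.6 CPM in controls (0.08 ± 0.07, adjusted p = 0.366 by edgeR). With library totals alone Ube2t passed as higher (0.22, adjusted p = 0.0166 by edgeR), as in the authors' deposited table (0.21). Of 9 Fanconi genes tested 5 fell and 1 rose, beside 29.2% and 28.3% of all genes, with falls of Fancc (-0.41), Fancl (-0.37), Fance (-0.25), Fanca (-0.20) and Fancd2 (-0.16). The single rise, that of Fancg (0.23), lost its call without mutant replicate 1 (adjusted p = 0.236) and without control replicate 2 (0.163). Fanca did not pass without mutant replicate 2 (0.0784), and Fancd2 did not pass whichever library was left out (adjusted p from 0.0568 to 0.193). With library totals alone Fance (0.097), Fanca (0.358) and Fancd2 (0.753) did not pass, and with upper quartile scaling Fanca (0.0675) and Fancd2 (0.238) did not. Ube2s, which extends chains on substrates of the anaphase-promoting complex, had only 19 and 11 counts in mutants, against 30 and 17 in controls (-0.47 ± 0.36, adjusted p = 0.271), and a change of this size was not detectable at that depth. Of 14 genes of the complex and its activators 8 fell and 1, Cdc27 (0.30), rose, beside 29.2% and 28.3% of all genes. With library totals alone Anapc1 (adjusted p = 0.877), Fzr1 (0.767) and Cdc23 (0.357) lost their calls. Cdc20, the mitotic activator, was at 104 ± 4.89 CPM in mutants and 174 ± 28.2 CPM in controls (-0.75, adjusted p = 0.00622 by edgeR), and Anapc7 (-0.58) and Anapc2 (-0.50) followed.

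Upstream of the E2 enzymes, 5 of the 9 activating enzyme genes fell and 2 rose, beside 29.2% and 28.3% of all genes. Uba1, the main E1 for ubiquitin, was at 1139 ± 6.54 CPM in mutants and 1339 ± 39.4 CPM in controls (-0.23, adjusted p = 9.83e-05 by edgeR). The autophagy E1 gene Atg7 (-0.54), Uba7 (-0.43), and Uba2 (-0.36) and Sae1 (-0.23), the subunits of the SUMO E1, fell. Uba3, the catalytic subunit of the NEDD8 E1, rose (0.39, adjusted p = 0.000258 by edgeR), as did Uba6 (0.26). The call of Uba6 was lost in 3 of the 4 leave-outs: it had adjusted p = 0.122 without mutant replicate 1, 0.088 without mutant replicate 2 and 0.38 without control replicate 1, and its value was 0.41 without control replicate 2. Of 11 modifier genes 4 fell and 1, Isg15, rose, beside 29.2% and 28.3% of all genes. Urm1 (-0.49), Sumo3 (-0.30) and Nedd8 (-0.22) were among those that fell. With library totals alone Sae1 (adjusted p = 0.088) and Nedd8 (0.143) did not pass. Of 8 ligases of the RING-between-RING class, the type that Ube2l3 serves, 6 fell and 1 rose, beside 29.2% and 28.3% of all genes. The falls were led by Rnf19b (-0.60), Rnf19a (-0.34) and Rbck1 (-0.26), and the rise was that of Arih1 (0.23). With library totals alone Rnf14 (adjusted p = 0.77), Sharpin (0.51) and Rnf31 (0.16) lost their calls.

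Over the 13 lists together, 22 of 119 tested pathway genes rose and 49 fell, which is 18.5% and 41.2%, beside 28.3% and 29.2% of all genes tested; their median was -0.09. This lean depended on scaling, since with library totals alone 41 rose and 32 fell, and 17 of the 49 falls lost their calls.

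**Figure D5:**
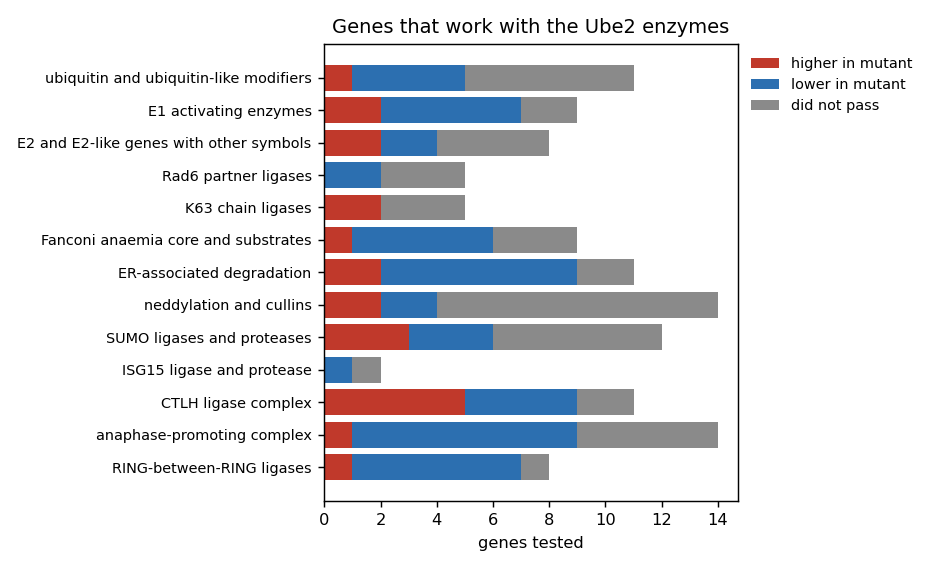
Number of tested genes in each of 13 lists of genes that work with the Ube2 enzymes (horizontal axis), split into higher in mutant, lower in mutant and not passing. Degradation at the endoplasmic reticulum, with 7 of 11 lower, and the anaphase-promoting complex, with 8 of 14 lower, have long lower parts. In the neddylation list 10 of 14 did not pass. Of all genes tested 28.3% were higher and 29.2% lower.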

How the data were processed

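Messenger RNA was sequenced in 4 libraries of sorted mouse fetal liver cells, 2 per group, with groups and replicate numbers from the sample titles. The deposited count table gives a whole number of reads for each gene, taken as raw because the libraries sum to different totals, and their own comparison as log2 fold changes with p-values, per the file headers. Per the submitters' processing notes the tools were FastQC, Bowtie and edgeR and the build mm9; for versions, strand and reads that map to several places the sources used here have no statement, and values of near-identical or overlapping genes are therefore uncertain. The columns named WT were taken as the controls by number. Of 35939 rows 12 with no values were left out.

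The fit used edgeR 4.0.16, with limma 3.58.1, under R 4.3.3. After filterByExpr, which kept 13140 genes, the TMM factors ran from 0.951 to 1.05, and mutant was compared with control by the quasi-likelihood test, two-sided, with Benjamini-Hochberg adjustment over all genes tested and a threshold of 0.05. Standard errors were derived from each gene's log2 fold change and F statistic. Common dispersion stood at 0.00232 (4.81% as a coefficient of variation), so small changes can pass. Replicates differed by more than counting noise (chi-square per gene 3.55 in mutants and 5.67 in controls, where counting alone gives about 1). With 2 libraries against 2, the smallest p of an exact permutation test is 0.33, so sums and shares of counts carry no test.

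Exon lengths and transcripts were GENCODE M21 (GRCm38), used for levels per kilobase and for the share of 50-base words that transcripts of another gene hold, on either strand; no source used here gives the read length. The merged exons of all isoforms overstate the length of most transcripts. Alternatives were other scalings, filters and tests (DESeq2 1.42.0 among them), a block for replicate number, and leaving out every library singly, where the lone library is assumed to vary like the others. The members, the gene lists and the tests were chosen with earlier results of these data known. Ube2 members are named, and of each pathway list up to 3 called genes with the largest rise and up to 3 with the largest fall, and all genes of a count of 5 or fewer; the other genes named were chosen after their values were seen. Of 122 pathway entries 121 were found by symbol or older symbol; Fancf was not matched. A few genes that enter the counts are not reported here by name.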

Additional observations from a re-analysis of the deposited data

How the results depend on the processing

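Of the 30 Ube2 genes, 9 kept direction and call in all 14 alternatives. The number that rose ran from 6 (DESeq2, and without mutant replicate 1) to 13 (library totals alone), and the number that fell was 3 under upper quartile scaling and 3 under library totals alone. The Ube2 median was 0.11 under upper quartile scaling, 0.17 under library totals alone and 0.081 with CPM above 1 in 2 libraries, where Ube2s and Ube2v1 were not tested; with each library left out in turn it ran from -0.049 to 0.054. Leaving out the member with over 50% of its words shared, Ube2v1, an alternative chosen after seeing the data, kept 9 rises and 6 falls, with a median of 0.05. Pathway genes were 41 higher and 32 lower under library totals alone, and 13 higher with DESeq2. Each of the larger shifts of scaling adds about the same amount to every gene. The sign changed in genes that did not pass: Ube2r2 had 0.056 under upper quartile scaling, 0.12 under library totals and 0.0012 with CPM above 1 in 2 libraries. Ube2f had 0.023 under upper quartile scaling and 0.084 under library totals, where Ube2e3 had 0.047 and Ube2e1 0.0065. Ube2q2 had -0.021 with no filter beyond 1 count. With each library left out in turn, Ube2a ran from -0.060 to 0.24, Ube2d1 from -0.11 to 0.27, Ube2q2 from -0.039 to 0.068, Ube2r2 from -0.083 to 0.032 and Ube2f from -0.23 to 0.079. The cause was not tested. The replicate number as a block gave 10 rises and 6 falls among the Ube2 genes and 8402 calls over all genes, against 7558; the block added the call of Ube2v2 (0.33, adjusted p = 0.025) and changed no other Ube2 call. The difference between replicates 1 and 2 in mutants correlated with that in controls at 0.119 across the genes tested and at 0.485 across genes above 10 CPM; no label says that a number pairs libraries. With 2 libraries a group and few counts, Ube2s, Ube2v1 and Ube2e2 allow no firm statement.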
